A study of Rattus norvegicus with 71 samples.

Results

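The exposure described here is the antibody pattern STIP1+NSE, set against the saline controls that were processed and sequenced in the same experimental batch. The animals were chosen by their labels alone: 8 offspring labelled STIP1+NSE and 12 labelled as controls with no autoantibody, all from the second batch, which makes 20 of the 71 rats of the series. Of the 8 exposed animals 4 were male and 4 female, one of each sex from each of 4 litters (9_2, 9_7, 9_12 and 9_17). Of the 12 controls 6 were male and 6 female, from litters 9_5 and 9_15 with 1 male and 1 female each, litter 9_10 with 4 females and litter 9_25 with 4 males.

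STIP1, also called HOP, is a co-chaperone that holds HSP70 and HSP90 together so that an unfolded client protein can be handed from one to the other. NSE, the product of Eno2, is the enolase of mature neurons and catalyses a late step of glycolysis. Maternal IgG is carried to the fetus by the neonatal Fc receptor, and in maternal autoantibody-related autism a mother's antibodies against fetal brain proteins reach the developing brain in this way.

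All animals were wild-type Sprague-Dawley rats killed at PND2. Before mating, the dams of the exposed litters had received weekly injections of synthetic multiple antigenic peptides of STIP1 and NSE in Freund's adjuvant, and the control dams adjuvant with saline, so both groups came from dams given adjuvant. RNA was taken from 1 coronal forebrain slice per animal, which held the hippocampal formation and the cortex and subcortical tissue beside it. Exposure was assigned to the dam, and littermates share the dam, her antibody titre and the time of collection. The study's allocation of offspring lists the sequenced STIP1+NSE animals as first litters and the sequenced controls as second litters, whereas its methods state that RNA came from first litters alone, so litter order and exposure cannot be told apart. The libraries held 25818198 to 34323510 counts, and the Y-linked gene Eif2s3y matched the labelled sex in all 20 (68.8 to 88.7 CPM, counts scaled to the size of the library, in males and at most 0.296 CPM in females).

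The transcripts of both antigens differed between exposed and control slices by less than the spread of the animals. Stip1 (chr1:204209435-204228449, rn7) ranged from 189.6 to 208 CPM in the 8 exposed animals, with a median of 198 CPM, and from 189 to 238 CPM in the 12 controls, with a median of 201 CPM. The highest values, 233 and 238 CPM, were those of the pups of control litter 9_5, and all exposed animals lay inside the range of the controls. Between the groups Stip1 differed by −0.04 ± 0.05 (SE) on the log2 scale, with a 95% confidence interval from −0.14 to 0.05 (−0.08, from −0.16 to 0.01, with rounds of dam numbers as a block, explained further on). Eno2 (chr4:157572085-157580936) ranged from 263 to 359 CPM with a median of 339 CPM in the exposed animals and from 307 to 371 CPM with a median of 345 CPM in the controls. The 2 pups of litter 9_7, at 263 and 293 CPM, and the male of litter 9_17, at 299 CPM, lay below every control. For Eno2 the difference was −0.07 ± 0.06 (SE), with an interval from −0.18 to 0.05.

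Taken per litter, since the dam was the unit exposed, mean Stip1 levels were 192, 196, 200.4 and 207 CPM in the exposed litters and 196, 198, 207 and 236 CPM in the control litters. Mean Eno2 levels were 278, 317, 348 and 354 CPM in the exposed litters and 319, 338, 343 and 346 CPM in the control litters. Over the litter means of log2 CPM, exposed minus control was −0.07 for Stip1 and −0.06 for Eno2. Neither difference passed an exact two-sided permutation test over the 70 splits of 4 against 4 litters (Stip1 p = 0.371 and Eno2 p = 0.686, both 0.686 after adjustment over the 2 genes; the smallest p this design allows is 0.0286).

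**Figure D1:**
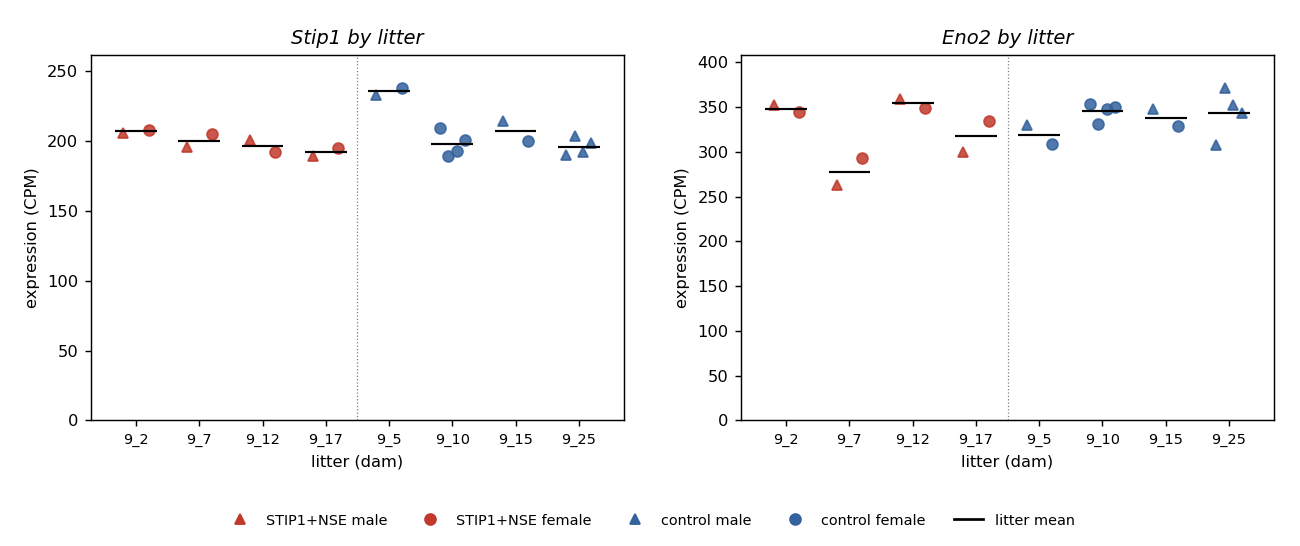
Expression of Stip1 and Eno2 in CPM on a linear axis that starts at 0, for each animal by litter (triangles males, circles females, red STIP1+NSE, blue controls, black bars litter means). The litters of the 2 groups overlap for both genes, control litter 9_5 being highest for Stip1 and exposed litter 9_7 lowest for Eno2.

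Per kilobase of exon, Eno2 stood at 146 CPM in the exposed and 153 CPM in the control slices, below Eno1, the enolase of most tissues, at 368 and 363 CPM. Eno3, the muscle enolase, and Eno4, known from sperm, were at 3.69 and 1.15 CPM per kilobase in exposed slices. None of these 3 other enolases differed at an unadjusted p under 0.05 (log2 fold changes of 0.02, 0.04 and 0.22).

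The chaperone system around STIP1 differed little from the controls, with values for most members slightly lower. Of 48 listed chaperones and co-chaperones 47 passed the expression filter, 10 with a log2 fold change above 0 and 37 below, with a median of −0.03, where the median of all 12562 genes tested was 0.00. In the same 12562 genes, 51.7% had a log2 fold change above 0. The list ranged from −0.15 to 0.33, and 1 member had an unadjusted p under 0.05, against 2.66% of all genes. That member was Dnaja4, an HSP40 that stimulates the ATPase of HSP70, at 32.5 to 39.0 CPM in the exposed animals (median 33.8 CPM) and 33.3 to 45.0 CPM in the controls (median 38.1 CPM). The ranges overlapped and the fitted log2 difference came to −0.15 ± 0.05 (p = 0.00962, adjusted p = 1.00, edgeR). Without 2 exposed males whose slices held pineal tissue markers, described further on, its p was 0.0553 (edgeR). In that fit 3 other members of the 47 had an unadjusted p under 0.05 (Hspa2 at 0.38, Dnajb4 at −0.14 and Fkbp5 at −0.11), beside 2.55% of all genes. With the rounds of dam numbers as a block 9 of the 47, all lower, had an unadjusted p under 0.05 (19.1%, beside 6.00% of all genes lower in that fit).

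The partners that STIP1 binds were among the most abundant transcripts of the slice and overlapped between the groups. Hsp90ab1, the constitutive cytosolic HSP90, ranged from 2079 to 2514 CPM in exposed and from 2191 to 2476 CPM in control animals. Hspa8, the constitutive HSP70, ranged from 1877 to 2119 CPM and from 1812 to 2159 CPM. Their log2 fold changes were −0.03 and −0.02, with intervals from −0.12 to 0.05 and from −0.10 to 0.06. Hspa1b, an inducible HSP70 made after heat or proteotoxic stress, was near the filter in both groups, with a median of 0.938 CPM in exposed and 0.927 CPM in control slices. Cdc37, which loads kinases onto HSP90, had a log2 fold change of −0.07 (p = 0.0700), and St13, which steadies HSP70 in its client-bound state, one of −0.06 (p = 0.185). Prnp, the cellular prion protein, a known surface partner of secreted STIP1, had a log2 fold change of 0.00 with an interval from −0.10 to 0.09.

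The glycolytic genes around enolase also lay close to the controls. All 24 listed genes passed the filter, 11 above and 13 below 0, with a median log2 fold change of −0.01 and a range from −0.12 to 0.08. Pfkl, the liver-type phosphofructokinase, was the member with an unadjusted p under 0.05 (1 of 24, 4.17%, beside 2.66% of all genes). It ranged from 165 to 213 CPM in exposed (median 175 CPM) and from 177 to 212 CPM in control animals (median 193 CPM), and 5 of the 8 exposed animals lay below all controls while one, the male of litter 9_2, lay above them. The fitted log2 difference came to −0.12 ± 0.04 (p = 0.0117, adjusted p = 1.00, edgeR), with p = 0.0909 without the same 2 males. Neighbouring steps did not follow it: Aldoa, the aldolase, had −0.04 (p = 0.538), Pkm, pyruvate kinase, −0.02 (p = 0.681), and Hk1, the brain hexokinase, 0.01 (p = 0.742). The antigens of the other antibody patterns, Crmp1, Dpysl2 (which encodes CRMP2), Gda, Ldha and Ldhb, had log2 fold changes between −0.07 and 0.24, and none had an unadjusted p under 0.05.

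Over the whole transcriptome no gene passed the study's threshold between exposed and control slices with sex as the covariate. The study itself reported 2 higher genes for STIP1+NSE at that threshold. Its analysis combined both batches and corrected for technical variation, so samples and model differ from those used here. Of 12562 genes tested with edgeR's quasi-likelihood test, with sex as a covariate, 0 passed FDR < 0.1, and DESeq2 also called 0. At an unadjusted p under 0.05 edgeR gave 334 genes (2.66% of those tested), 195 higher (1.55%) and 139 lower (1.11%), and DESeq2 gave 372. In 0 of the 12562 genes (0%) did the ranges of the 8 exposed and 12 control animals lie apart. The litter means lay apart in 48 genes with all 4 exposed litters above (0.382%) and in 44 with all 4 below (0.350%). The median gene's fold change was estimated with an SE of 0.08 on the log2 scale, and for 96.2% of genes the 95% interval lay within 1 of 0 in both directions, so that changes by a factor of 2 were outside the interval for nearly all genes. With litter as a random effect, which takes littermates as correlated (consensus correlation 0.406), the share was 92.2%, and 72 genes (0.573%, 0.287% in each direction) had an unadjusted p under 0.05.

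The study also grouped litters of nearly the same birth and collection dates into cohorts, but no label used here gives the cohort. The dam numbers may run in rounds of 5 litters, an inference that no label states, from each pattern keeping its place in every run of 5. Litters 9_2 and 9_5, 9_7 and 9_10, and 9_12 and 9_15 then share a round, and the contrast rests on these 3 pairs, since litters 9_17 and 9_25 stand alone in theirs. With rounds as a block, an alternative added after the values above were seen, 1437 genes (11.4%) had an unadjusted p under 0.05, 683 higher (5.44%) and 754 lower (6.00%). One gene (0.00796%), Fam89a, passed FDR < 0.1 (log2 fold change −0.60 ± 0.09, adjusted p = 0.0230, edgeR). With litter also as a random effect the count was 1418 and the consensus correlation of littermates 0.0178. With 5 rounds and the exposure fitted to 8 litters, little variation between litters is left for the random effect to measure. The count of 1418 is therefore hardly a separate check on the likeness of littermates. With counts summed per litter 856 genes had an unadjusted p under 0.05, 0 passed FDR < 0.1, and Fam89a had an adjusted p of 0.659 (edgeR).

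The 24 genes with the smallest p, 12 in each direction, are described because they head the ranking, although only Tlx2 had an adjusted p under 1.00 (0.570). Nefh (chr14:79830362-79840347), the heavy neurofilament of large-calibre axons, ranged from 13.1 to 19.8 CPM in exposed (median 16.6 CPM) and from 16.5 to 30.1 CPM in control animals (median 20.95 CPM), and the fitted difference was −0.36 ± 0.10 on the log2 scale. Tac1 (chr4:35679183-35687181), the precursor of substance P, ranged from 9.70 to 21.3 CPM in exposed and from 15.97 to 23.5 CPM in control animals (log2 fold change −0.36 ± 0.11). For Nefh 4 and for Tac1 6 of the 8 exposed animals lay below every control. Cabp7, a neuronal calcium-binding protein, had a log2 fold change of −0.31 ± 0.10 and also held 4 exposed animals below the controls. Daglb, a lipase that makes the endocannabinoid 2-arachidonoylglycerol, had −0.16 ± 0.05.

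Commd7 (chr3:142099566-142114330), a COMM domain protein of the Commander endosomal recycling complex, had the smallest p among the lower genes. It ranged from 29.7 to 37.95 CPM in exposed (median 34.2 CPM) and from 30.9 to 46.4 CPM in control animals (median 40.6 CPM), with a fitted log2 difference of −0.25 ± 0.06 (p = 4.08e-04, adjusted p = 1.00, edgeR). All 8 exposed animals lay below the median of the controls, and all 4 exposed litter means below all 4 control litter means, although 1 control female of litter 9_10, at 30.9 CPM, reached into the exposed range. Vps37d (chr12:21609210-21614660), a subunit of the ESCRT-I complex that sorts membrane proteins for degradation, ranged from 51.3 to 58.8 CPM and from 57.9 to 65.7 CPM. That is a small difference, −0.12 ± 0.04, but 6 of the 8 exposed animals lay below every control. Fam89a had −0.37 ± 0.11 (−0.60 ± 0.09 with the rounds as a block), Nt5m, a mitochondrial deoxyribonucleotidase, −0.33 ± 0.11, and Pank1, which catalyses the first step of coenzyme A synthesis, −0.18 ± 0.06. Zfp707l1, a zinc finger gene, had −0.42 ± 0.10 with 6 exposed animals below every control. The last 2 genes were near the filter: Rhd, a blood group antigen of red cells, at a median of 0.567 CPM in exposed and 1.09 CPM in control slices, and Lrrc51 at 0.548 and 0.904 CPM.

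Elovl1 (chr5:131962762-131965958), an elongase of very long chain fatty acids, ranged from 16.7 to 24.4 CPM in exposed (median 20.6 CPM) and from 13.0 to 19.2 CPM in control animals (median 17.1 CPM). Of the 8 exposed animals 6 lay above every control; the male of litter 9_12 was lowest. Elovl1 differed by 0.30 ± 0.08 on the log2 scale (p = 0.00136, adjusted p = 1.00, edgeR). Abhd14b (chr8:107088080-107092117), a hydrolase that acts as a lysine deacetylase, ranged from 6.85 to 13.7 CPM and from 5.98 to 9.43 CPM, with a fitted log2 difference of 0.42 ± 0.11. Akr1c19 (chr17:66004002-66025047), an aldo-keto reductase of a family of near-identical neighbouring genes that can share reads, ranged from 1.25 to 3.63 CPM and from 0.144 to 1.82 CPM, with a fitted log2 difference of 1.11 ± 0.31. In these 3 genes all 4 exposed litter means lay above all 4 control litter means. Rreb1, a zinc finger transcription factor downstream of Ras, had 0.45 ± 0.13, with 8 of 8 exposed animals above the median of the controls.

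Polq and LOC300308 were high in part of the exposed litters. Polq (chr11:63673816-63775878), the DNA polymerase of microhomology-mediated end joining, was at 7.55 and 10.4 CPM in the male and female of litter 9_7, while the other 6 exposed animals ranged from 1.86 to 3.16 CPM and the controls from 1.58 to 2.96 CPM. Over all animals Polq differed by 1.00 ± 0.28 on the log2 scale. LOC300308, a gene model that spans chr7:15821529-16455557, ranged from 0 to 4.35 CPM in exposed and from 0.107 to 1.24 CPM in control animals, and its interval with litter as a random effect held 0 (p = 0.181). With litter as a random effect 12 of the 12 lower and 5 of the 12 higher genes kept an unadjusted p under 0.05, and with counts summed per litter 9 of the lower and 12 of the higher, a description only, since the genes were ranked on the same animals. Over all 12562 genes the counts were 72 and 143. Of the 12 higher genes 6, described next, passed the filter only through 2 exposed males.

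**Figure D2:**
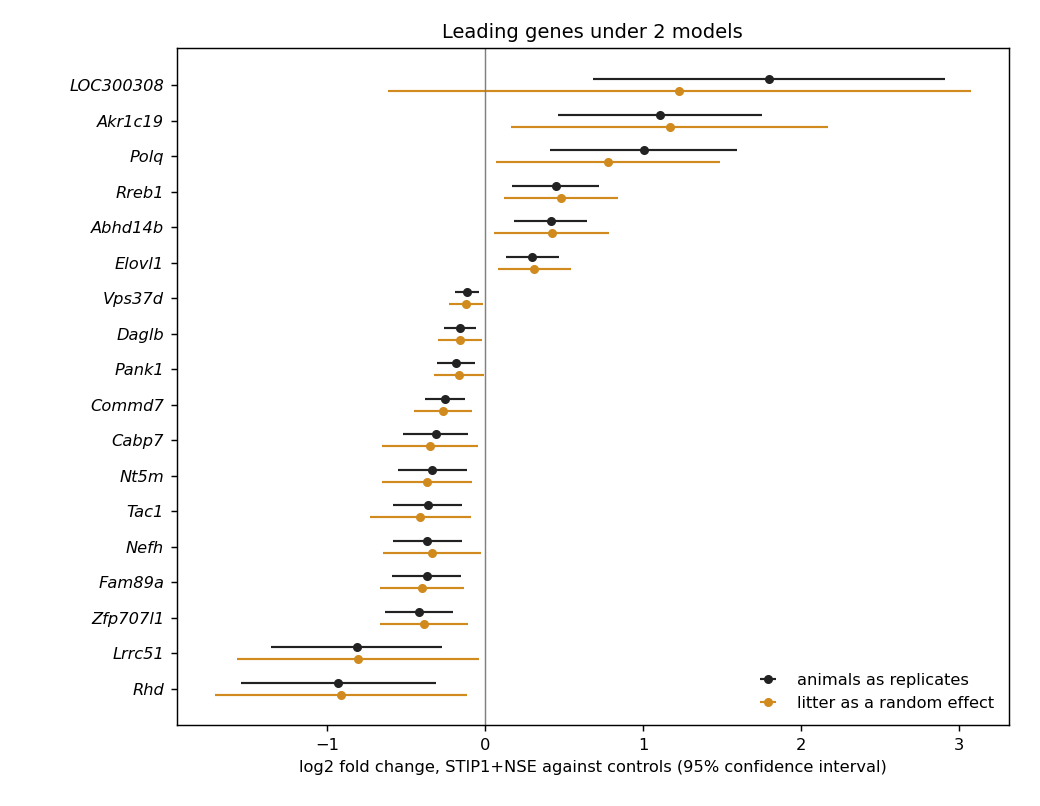
Log2 fold changes of STIP1+NSE against controls with 95% confidence intervals for the 18 leading genes whose control median was at least 0.3 CPM, with animals as replicates (black) and with litter as a random effect (orange). The intervals widen with litter in the model, and that of LOC300308 then holds 0. The 6 leading genes with a lower control median are left out, because a fold against slices at or near 0 has no stable value.

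The other 6 leading higher genes (Tlx2, Prph2, Crx, Tulp1, Isl2 and Pde6c) were present in 2 slices, those of the males of litters 9_7 and 9_12. These are genes of photoreceptors and of the pineal gland, an outgrowth of the dorsal forebrain that makes melatonin, and of neurons with related transcription factors. Crx (chr1:76540141-76545818), the homeobox factor of photoreceptors and pinealocytes, stood at 3.88 and 4.62 CPM in these males, at 0 to 0.148 CPM in the other 6 exposed animals and at 0 to 0.142 CPM in the controls. Tlx2 (chr4:115573799-115575642), a homeobox gene best known from the enteric nervous system, stood at 1.77 and 1.60 CPM, with at most 0.147 CPM in any other of the 20 slices. The genes of melatonin synthesis followed: Tph1, the tryptophan hydroxylase of the pineal, stood at 30.1 and 60.0 CPM against at most 1.67 CPM elsewhere, and Aanat, which makes the melatonin precursor, at 3.95 and 9.45 CPM against at most 0.527 CPM. Of the 16 listed pineal and photoreceptor genes in the table, 12 were higher in both males than in all 18 other animals. The exceptions were Asmt and Rom1, present in all slices, and Pde6b and Cnga3, at or near 0 in all.

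Of these 16 genes 12 passed the filter, many of them through those 2 slices alone. Without the 2 males, an alternative added after these values were seen, 319 of 12521 genes had an unadjusted p under 0.05 (2.55%, 1.36% higher and 1.19% lower) and 0 passed FDR < 0.1. The 6 genes then no longer passed the filter, and the 5 listed pineal genes still tested had a median of −0.14, with 0 under 0.05. The other 6 leading higher and all 12 leading lower genes kept an unadjusted p under 0.05. That is a description only, since these genes were ranked on animals that this fit reuses. In bulk tissue more cells of a type and more RNA per cell cannot be told apart. The slice of the male of litter 9_7 also held Hox genes, which mark hindbrain and spinal cord: 14 of the 21 in the table were higher in it than in any other slice, with Hoxb5 at 4.42 CPM and Hoxc4 at 3.47 CPM. Summed over the list, Hox genes came to 23.9 CPM in this slice, to at most 0.861 CPM in the other 7 exposed slices and to at most 8.35 CPM in the controls.

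**Figure D3:**
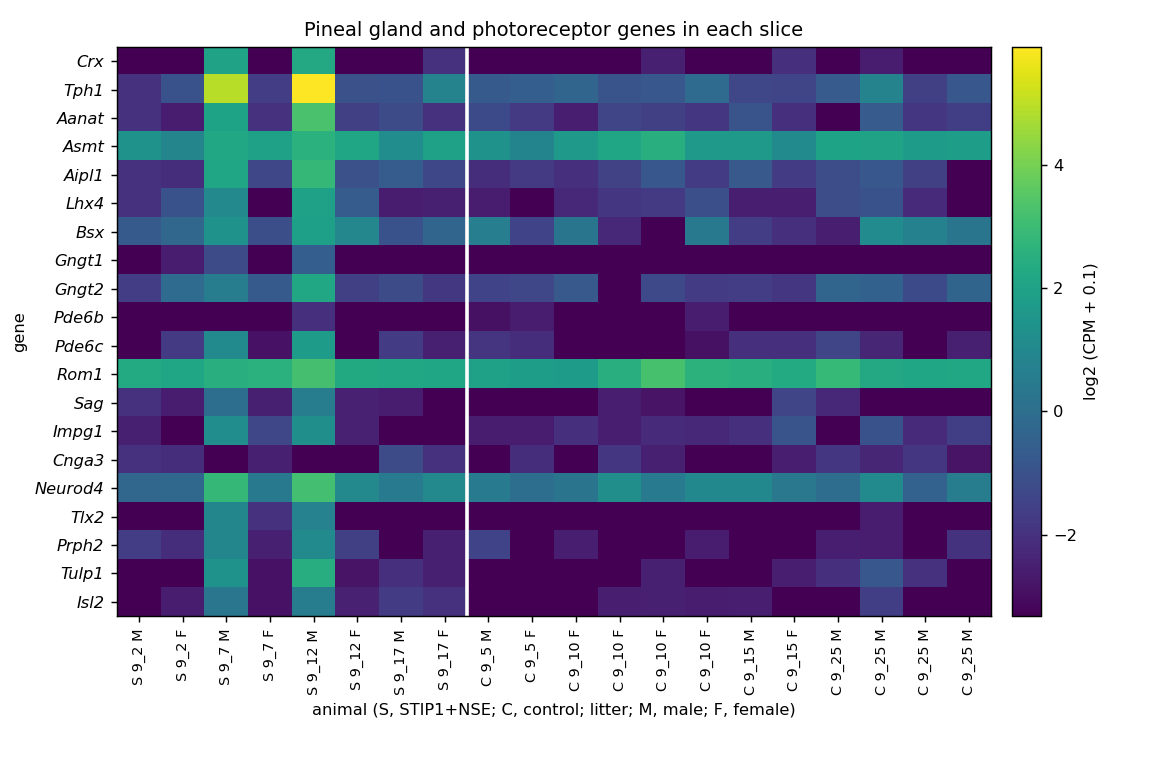
Colour shows log2 (CPM + 0.1) of the 16 pineal and photoreceptor genes and of Tlx2, Prph2, Tulp1 and Isl2 (rows) in each of the 20 slices (columns, STIP1+NSE left of the white line, controls right). The columns of the males of litters 9_7 and 9_12 stand out, while Asmt and Rom1 are bright throughout.

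The slices differed in tissue makeup, in both groups. The first principal component held 27.8% of the variance and ran from −28.0 to 29.6 over exposed and from −37.0 to 46.1 over control animals. Choroid plexus genes, which serve the epithelium that secretes cerebrospinal fluid, summed to between 776 and 2577 CPM in exposed and between 309 and 3613 CPM in control slices, and 16 of their 17 members had a log2 fold change above 0, with a median of 0.23. Ttr, transthyretin, the main product of that epithelium, ranged from 465 to 1878 CPM in exposed and from 122 to 2675 CPM in control slices (log2 fold change 0.31 ± 0.49, p = 0.529), and 0 of the 17 had an unadjusted p under 0.05. Thalamic genes leaned the other way, 2 of 14 above 0 with a median of −0.15. Their summed level was 263 CPM in the female of litter 9_2 against 665 to 1355 CPM in the other exposed slices, and it was lowest among controls in the female of litter 9_5, at 433 CPM. Tcf7l2, a factor that marks thalamic neurons, was at 13.1 CPM in that exposed female and between 264 and 670.5 CPM in the other 7.

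Genes of the meninges and vessels leaned higher in the exposed slices without any gene passing the adjusted threshold. All 15 genes of meninges and fibroblasts had a log2 fold change above 0, with a median of 0.49 and a range from 0.31 to 0.73. Summed, they ranged from 204 to 1757 CPM in exposed (median 1095 CPM) and from 166 to 1224 CPM in control slices (median 682 CPM), so that slices within a group differed by more than the groups did. One member, Crabp2, which binds retinoic acid, had an unadjusted p under 0.05 (1 of 15, 6.67%, beside 2.66% of all genes). It ranged from 7.67 to 29.2 CPM and from 4.06 to 17.1 CPM, with a fitted log2 difference of 0.58 ± 0.25 (p = 0.0332, and 0.178 with litter as a random effect). Aldh1a2, the retinoic acid synthase of the meninges, had the highest fold change of the list, 0.73 ± 0.37 (p = 0.0662), and collagen Col1a1 one of 0.55 ± 0.35 (p = 0.134).

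Of 18 endothelial genes 17 were above 0, with a median of 0.17, and 4 had an unadjusted p under 0.05 (22.2%, beside 2.66% of all genes). Flt1, a VEGF receptor that holds back vessel growth, ranged from 27.9 to 38.7 CPM in exposed (median 31.4 CPM) and from 21.9 to 36.5 CPM in control slices (median 26.8 CPM), with a fitted log2 difference of 0.21 ± 0.09 (p = 0.0305). Kdr, the main signalling receptor of VEGF, had 0.27 ± 0.13 (p = 0.0471), Eng, a TGF-beta co-receptor, 0.22 ± 0.10 (p = 0.0399), and Mfsd2a, a lipid carrier of the blood-brain barrier, 0.12 ± 0.06 (p = 0.0490). With litter as a random effect 0 of the 18 had an unadjusted p under 0.05, beside 0.573% of all genes. In males alone the sign of Flt1 turned (−0.05). Cldn5, the tight junction protein of the barrier, had 0.12 with an interval from −0.21 to 0.45, and Vegfa, the ligand, 0.09 with an interval from −0.18 to 0.36. Pericyte genes were above 0 in 12 of 13, with a median of 0.13 and none under 0.05. Endothelial and meningeal levels moved together from slice to slice, with litter 9_2, the male of litter 9_7 and the female of litter 9_17 above the other exposed slices for meninges and endothelium and the female of litter 9_7 lowest for both, and the part of slice makeup in these differences was not tested.

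**Figure D4:**
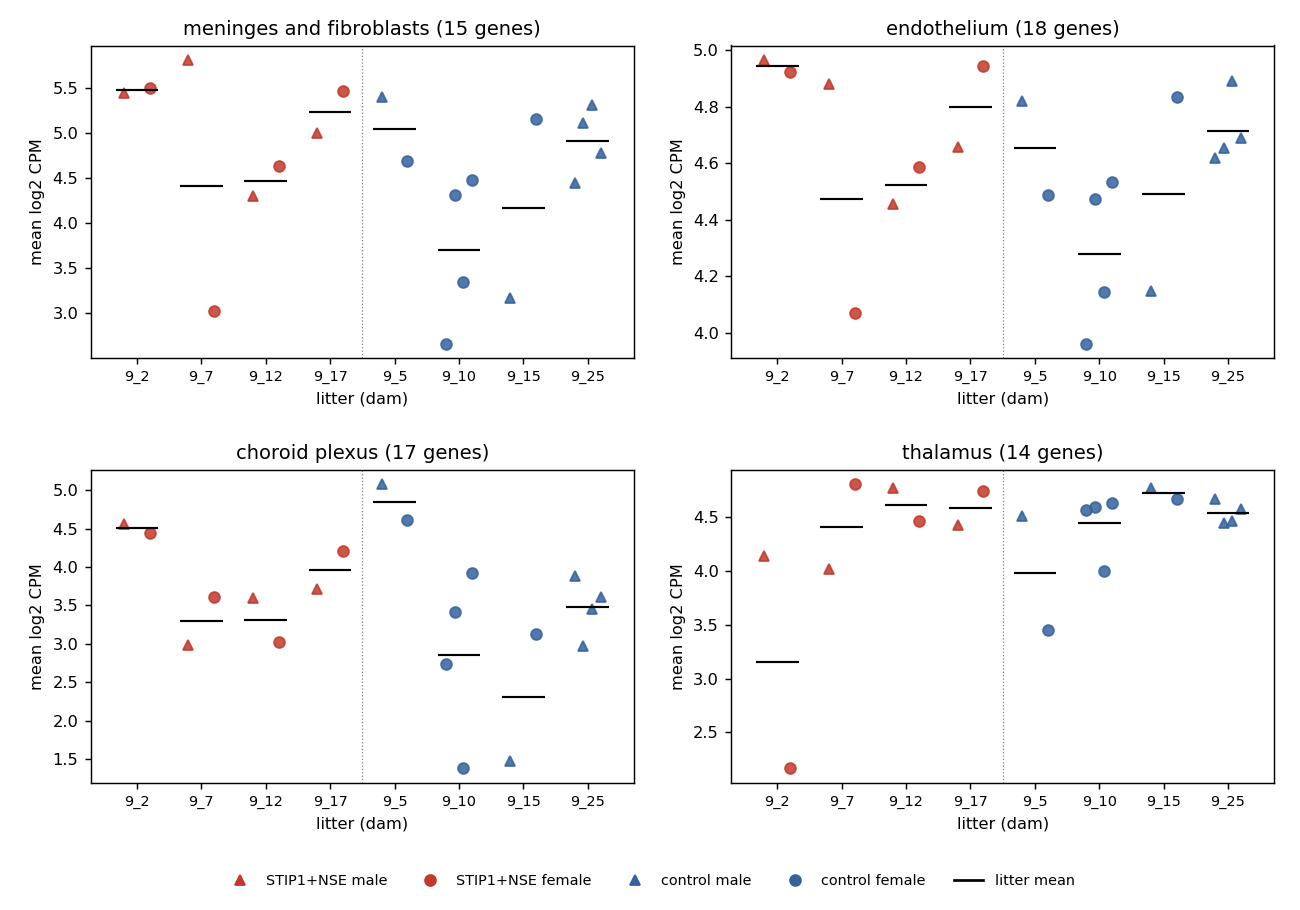
Mean log2 CPM of the tested members of 4 marker lists in each animal by litter (triangles males, circles females, red STIP1+NSE, blue controls, black bars litter means; axes do not start at 0). Littermates differ widely, as in litter 9_7 for meninges and endothelium and litter 9_15 for choroid plexus, and the female of litter 9_2 is lowest for thalamus.

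Of 47 synaptic vesicle and release genes 23 were above and 24 below 0, with a median of 0.00 and 0 under an unadjusted p of 0.05. With the rounds as a block 35 were above 0 (median 0.04), and with counts summed per litter 32 (median 0.02). In the fit with rounds 4, all higher, had an unadjusted p under 0.05 (8.51%, beside 5.44% of all genes higher). Syp, synaptophysin, a membrane protein of synaptic vesicles, had −0.03 ± 0.06. Glutamate receptor genes had a median of −0.01, with 10 of 25 above 0, but this lean depended on the fit. With the rounds as a block 22 were above 0 (median 0.09), and with counts summed per litter 20 (median 0.03). With litter as a random effect 15 were above 0 (median 0.01), and without the 2 males with pineal genes 18 (median 0.03). In the fit with rounds 5 of the 25, all higher, had an unadjusted p under 0.05, beside 5.44% of all genes higher. In the fit without rounds 2 NMDA receptor subunits had an unadjusted p under 0.05 (8.00%, beside 2.66% of all genes). Grin2c, a subunit that appears late in development, ranged from 2.78 to 8.94 CPM in exposed and from 1.43 to 5.20 CPM in control slices, with 4 exposed animals above every control and a log2 fold change of 0.65 ± 0.24 (p = 0.0126, and 0.0510 with litter as a random effect). Grin3b, a glycine-binding subunit, ranged from 14.2 to 27.7 CPM and from 10.6 to 22.5 CPM, with 8 of 8 exposed animals above the median of the controls and a log2 fold change of 0.41 ± 0.14 (p = 0.00984, and 0.0340 with litter as a random effect). Neither passed adjustment over all genes (adjusted p = 1.00 for both, edgeR).

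Among 21 genes of GABA signalling and chloride transport, 10 were above 0, with a median of −0.01. Gabra5, the alpha 5 subunit of hippocampal tonic inhibition, had the one unadjusted p under 0.05 (4.76%, beside 2.66% of all genes). It ranged from 114 to 163 CPM in exposed (median 147 CPM) and from 129 to 181 CPM in control slices (median 169 CPM), with a fitted log2 difference of −0.17 ± 0.06 (p = 0.0152, and 0.0818 with litter as a random effect). All 8 exposed animals lay below the median of the controls, and the lowest was the male of litter 9_7. With the rounds as a block 17 of the 21 listed genes were above 0 (median 0.10), and with counts summed per litter 15 (median 0.04). In the fit with rounds 5 higher and 1 lower had an unadjusted p under 0.05 (28.6%, beside 11.4% of all genes). A pair of genes of early-born cortical neurons had higher values: Tbr1, a factor of deep-layer neurons, by 0.18 ± 0.08 (p = 0.0443, and 0.140 with litter as a random effect) and Reln, the signal of Cajal-Retzius cells and interneurons, by 0.29 ± 0.13 (p = 0.0363, and 0.0492). Of the 8 listed Cajal-Retzius genes Reln alone was above 0 and alone under 0.05 (12.5%, beside 2.66% of all genes), with a list median of −0.15. With the rounds as a block 6 were above 0, with a median of 0.21. Of 19 cortical excitatory neuron genes 11 were above 0 (median 0.03), with Tbr1 the one under 0.05 (5.26%). Of 13 hippocampal identity genes 3 were above 0 (median −0.05).

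Olig1 and Olig2, neighbouring transcription factor genes of precursors on chromosome 11, had log2 fold changes of −0.19 ± 0.07 (p = 0.0124, and 0.0581 with litter as a random effect) and −0.19 ± 0.07 (p = 0.0184, and 0.0558), and Myrf, the factor that starts myelin gene expression, one of 0.28 ± 0.10 (p = 0.0122, and 0.0414). Olig1 ranged from 126 to 169 CPM in exposed and from 141 to 212 CPM in control slices, with 4 exposed animals below every control, and Myrf from 11.5 to 18.01 CPM and from 9.17 to 15.5 CPM, with 8 of 8 above the median of the controls. Over the 19 listed genes tested 7 were above 0, with a median of −0.04 and 3 under 0.05 (15.8%, beside 2.66% of all genes); 11 were above 0 with counts summed per litter or without the 2 males with pineal genes (medians 0.01 and 0.04).

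Mitochondrial genes of oxidative phosphorylation were a uniform group, 61 of 68 below 0, but the median was −0.04, 0 of 68 had an unadjusted p under 0.05, and Sdha, the flavoprotein of complex II, came nearest (−0.10 ± 0.05, p = 0.0606). With the rounds as a block 1 of the 68 was above 0, the median was −0.13, and 33 members, all lower, had an unadjusted p under 0.05 (48.5%, beside 6.00% of all genes lower in that fit), none with an adjusted p under 0.1 (edgeR). Cell cycle genes were above 0 in 28 of 38, with a median of 0.05. Bub1, a kinase of the spindle checkpoint, had 0.28 ± 0.10 (p = 0.0150), and Polq is the other of the 2 members under 0.05 (5.26%, beside 2.66% of all genes). Of 20 immediate early genes Jun alone had an unadjusted p under 0.05 (−0.15 ± 0.07, p = 0.0423, and 0.144 with litter as a random effect). That is 5.00% of the list, beside 2.66% of all genes. Without the 2 males with pineal genes, Grin2c, Grin3b and Myrf kept an unadjusted p under 0.05 (0.0459, 0.0413 and 0.00364, edgeR), while Gabra5, Tbr1, Reln, Olig1, Olig2, Bub1 and Jun did not (0.0618 to 0.231). This too is a description only, since these genes were picked by their p in animals that the fit reuses.

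**Figure D5:**
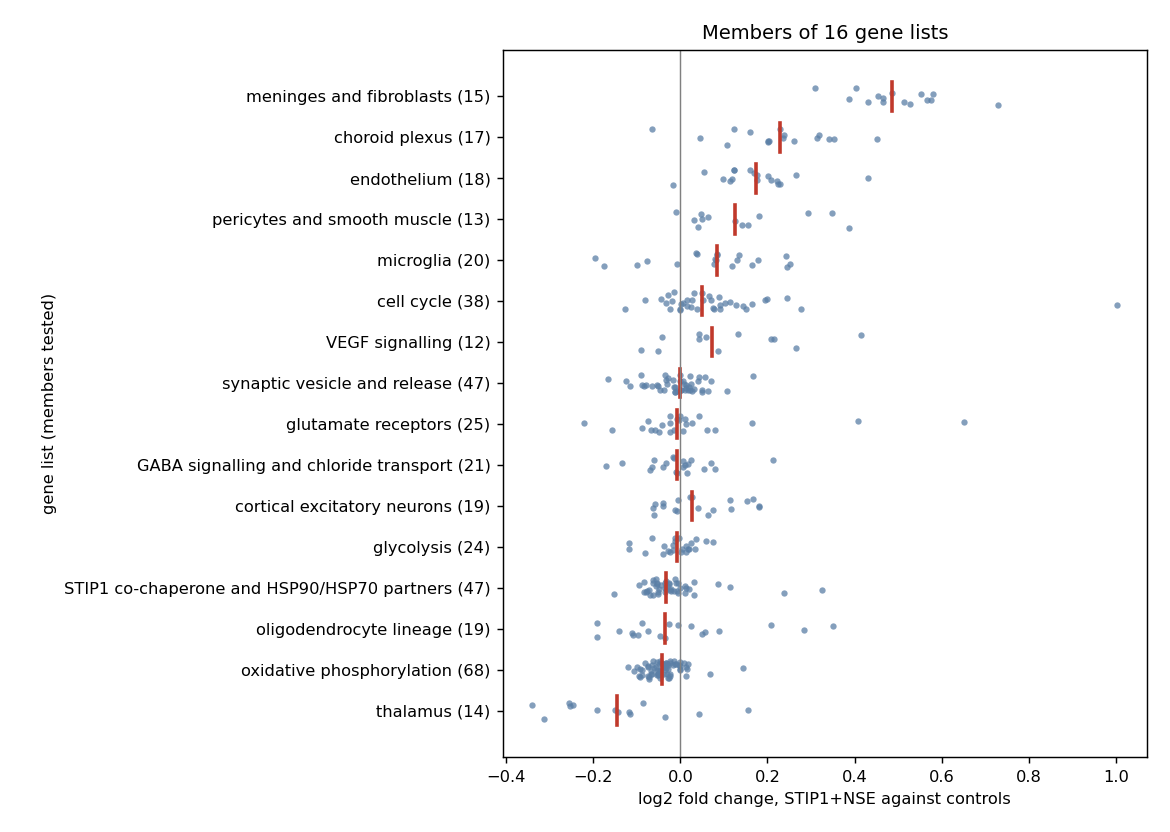
Each point is the log2 fold change of STIP1+NSE against controls of one member of a gene list, for 16 lists with the number of members tested, and red bars are medians. Meningeal genes lie to the right of 0 without exception, chaperone and oxidative phosphorylation genes gather just left of it, and Polq is the point at 1.00 among cell cycle genes.

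Genes that handle IgG and inflammation gave no change past the threshold. Fcgrt, the heavy chain of the neonatal Fc receptor, ranged from 10.05 to 32.5 CPM in exposed and from 8.09 to 29.9 CPM in control slices (log2 fold change 0.26 ± 0.24, p = 0.290). Trim21, the cytosolic Fc receptor that directs antibody-coated particles to the proteasome, had the one unadjusted p under 0.05 of 7 tested (14.3%, beside 2.66% of all genes). Its median was 0.996 CPM in exposed and 0.582 CPM in control slices (0.63 ± 0.29, p = 0.0430, and 0.142 with litter as a random effect). Of 28 cytokine, chemokine and growth factor genes in the table, 24 were below the filter, at most 0.994 CPM in any slice. The 4 tested had intervals that held 0: Vegfa, Cx3cl1, the microglial ligand fractalkine, at 0.07 (−0.14 to 0.27), Egf at 0.14 (−0.25 to 0.52) and Il18 at 0.12 (−0.45 to 0.69). Microglial genes were above 0 in 15 of 20 with a median of 0.08, and genes of interferon response and antigen presentation in 18 of 22 with a median of 0.08, with 0 members of either list under an unadjusted p of 0.05. Csf1r, the receptor on which microglia depend, had 0.24 ± 0.26.

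Of the 12 genes that the study singled out over all its patterns, Grin3b and Polq had an unadjusted p under 0.05 here (16.7%, beside 2.66% of all genes). The study chose the 12 genes on a sample that includes these animals. Next in the ranking were Pag1 and Vsnl1. Pag1, an adaptor that restrains Src kinases, was at 5.96 to 8.36 CPM in exposed and 5.20 to 7.78 CPM in control slices (0.18 ± 0.09, p = 0.0612), and Vsnl1, a neuronal calcium sensor, at 128 to 202 CPM and 156 to 223 CPM (−0.16 ± 0.08, p = 0.0598). Sav1, a Hippo pathway scaffold, was above the median of the controls in 8 of 8 exposed animals, yet inside their range (0.13 ± 0.08, p = 0.138). Mfrp, a gene of the choroid plexus and retinal epithelium, ranged from 8.61 to 36.001 CPM and from 1.123 to 49.7 CPM (0.35 ± 0.51, p = 0.495). Bach1, Bach2, Mt1, Efna2, Kiaa0408L and Calb2 had unadjusted p between 0.194 and 0.645.

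Each exposed litter gave 1 male and 1 female, so the exposure effect could be compared between the sexes. For the difference of the effect between males and females 0 genes passed FDR < 0.1 with edgeR and 0 with DESeq2, and 703 (5.60%; 2.19% positive and 3.41% negative) and 752 had an unadjusted p under 0.05. Galnt16, a transferase that starts O-linked glycosylation, had the smallest p. In males it ranged from 83.7 to 91.5 CPM in exposed and from 90.9 to 112 CPM in control animals, and in females from 92.5 to 99.6 CPM and from 78.2 to 91.5 CPM, so that the female ranges lay apart and the male ranges overlapped at their edge. The male effect minus the female effect was −0.37 ± 0.09 (p = 3.59e-04, adjusted p = 0.881, edgeR). LOC102552805, a gene model on chromosome X, had a difference of −0.75 ± 0.18 and Tuba8, a tubulin, one of −1.55 ± 0.39, the latter at means between 1.34 and 2.55 CPM in the 4 groups. Control males came from 3 litters, 4 of the 6 from litter 9_25, and control females likewise, 4 of the 6 from litter 9_10, so among controls sex and litter can hardly be told apart.

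Finally, the STIP1+NSE slices were set against the 23 slices of the 3 other antibody patterns of the batch (8 of CRMP1+CRMP2, 6 of CRMP1+GDA and 9 of LDHA/B+CRMP1+STIP1), whose dams had been injected with peptides in adjuvant as well. LDHA/B+CRMP1+STIP1 also has STIP1 among its antigens, so this contrast does not set STIP1 antibodies against their absence. Of 12738 genes 0 passed FDR < 0.1 with edgeR and 0 with DESeq2, and 397 (3.12%; 1.48% higher and 1.63% lower) and 427 had an unadjusted p under 0.05. Zfp707l1, lower against the controls, was also among the leading genes here: it ranged from 4.39 to 6.23 CPM in STIP1+NSE and from 5.04 to 8.28 CPM in the other patterns, with a fitted log2 difference of −0.32 ± 0.09. Scrt2, a repressor of newborn neurons, had −0.29 ± 0.08, Szrd1 −0.14 ± 0.04 and Abtb2 −0.31 ± 0.09. Among the higher genes were Car7, a carbonic anhydrase of neurons that sets the GABA response, with 0.70 ± 0.20, Rab26, a synaptic vesicle GTPase, with 0.26 ± 0.08, and Vipr1, a receptor of vasoactive intestinal peptide, with 0.63 ± 0.19. Ttpal, also among the leading higher genes, had 0.14 ± 0.04. Akr1c19, higher against the controls, had 0.89 ± 0.29 here (unadjusted p = 0.00435). Hoxa6 was at 0 in all 8 STIP1+NSE slices and reached 3.59 CPM in the other patterns, whose median was also 0. It passed the filter only through slices of the other patterns, and controls reached at most 0.0714 CPM. With litter as a random effect its p was 0.180 (limma), and against the controls it was not tested. The gene with the smallest p, Ddx3y, is placed on chromosome 13 and stood at 0.406 to 3.01 CPM, and reads of its near-identical relatives make it uncertain. Stip1 and Eno2 had log2 fold changes of −0.03 ± 0.04 and 0.06 ± 0.07 in this comparison. Polq and Grin3b, which led or stood out against the controls, had 0.33 ± 0.26 and −0.02 ± 0.14 against the other patterns, whose mean levels were 3.85, 2.78 and 3.29 CPM for Polq and 21.8, 17.01 and 19.7 CPM for Grin3b.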

How the data were processed

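Whole-number counts per gene were deposited by the authors, who aligned poly-A paired-end reads to rat build rn7 with STAR 2.5.4b and counted them with featureCounts. The other unit, exon length in bases, was deposited in the same table of 17494 genes. Among counts from 1 to 9, 73.6% were even, and halving all counts was tried. No sample column was left unassigned. Groups, litters and sex came from the labels. At the depth of these libraries 1 CPM is 25.8 to 34.3 counts.

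In R 4.3.3, edgeR 4.0.16 (TMM, robust quasi-likelihood test, Benjamini-Hochberg adjustment, FDR < 0.1) was fitted to the 20 animals with exposure and sex, over genes above 1 CPM in at least 2 samples. Interaction with sex and the contrast with 3 other patterns (43 animals) were fitted alike. The study adjusted for technical and sex-related variation with a surrogate variable or principal components; a surrogate variable was tried here as an alternative with sva 3.50.0. Other alternatives were edgeR's likelihood ratio test, DESeq2 1.42.0, other scalings and filters, no sex term, a principal component or choroid plexus score, counts summed per litter, litter as a random effect (limma 3.58.1), all 24 controls, all 43 animals, each sex and each litter left out, and, added after seeing the data, rounds of dam numbers as a block. Litter means were tested with exact permutation. The edgeR quasi-likelihood fits of exposure, interaction and the contrast with other patterns were tested on simulated counts, in which littermates were no more alike than other animals. The alternatives were not tested in this way. Log2 CPM has a prior count of 2. Animals are the replicates, and ± is the SE of the fit. Littermates share a dam, so p-values over animals are too small where littermates resemble each other.

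Named are the 12 genes per direction with the smallest p against controls, the 5 per direction against the other patterns, 3 for sex, the antigen genes, the study's singled-out genes, and list members with p under 0.05 or, in lists without one, the most abundant. Other genes were chosen after their values were seen. The animals, lists and tests were chosen with earlier results of these data known. Protein and promoter sequences were not used here.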

Additional observations from a re-analysis of the deposited data

Results flagged for a closer look

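In 7 of 89 genes checked, one exposed animal stood far from the other 7 on the log2 CPM scale, with a gap of more than 0.526 of the group's range; chance alone marks about 1 in 20 genes. The female of litter 9_2 was lowest for Tcf7l2 (gap 0.763, at 13.1 CPM), Eno3 (0.712, at 3.45 CPM) and Cabp7 (0.589, at 11.5 CPM) and highest for Gda (0.592, at 146 CPM), the enzyme that is an antigen of another pattern. The male of litter 9_2 was highest for Pfkl (0.614, at 213 CPM). The male of litter 9_7 was lowest for Gabra5 (0.643, at 114 CPM) and alone had counts for Hoxb7 (1.00, at 0.0680 CPM).

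For 4 genes every exposed male lay on one side of the mean of the control males and every exposed female on the other side of that of the control females. The male minus female difference was 0.481 for Eno3, 0.592 for Neurod6, −0.370 for Galnt16 and −0.735 for LOC102552805 on the log2 scale. The last pair led the ranking of the sex interaction (adjusted p = 0.881 for both, edgeR), and the difference passed the threshold in none of the 4.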

How the results depend on the processing

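No paired analysis was possible because the labels give no replicate numbers and no dam is shared between groups. With the inferred rounds of dam numbers as a block, chosen after seeing the data, 1437 genes had an unadjusted p under 0.05 against controls (1418 with litter also random, 856 summed per litter), 233 for the interaction and 681 against the other patterns. Against controls, genes at FDR < 0.1 numbered 0 except for 1 gene: Fam89a with the rounds (also with litter random), and Tlx2 with the choroid plexus score added or without litter 9_2 or 9_17, a range of 0 to 1. Tlx2 passed the filter only through the males of litters 9_7 and 9_12 (1.77 and 1.60 CPM, at most 0.147 CPM elsewhere). With litter as a random effect its p was 0.103 (limma). At an unadjusted p under 0.05, the 334 genes became 882 with the surrogate variable, 885 with the principal component, 819 with the choroid plexus score, 143 with counts summed per litter, 72 with litter as a random effect (84 without the 2 males with pineal genes), and 659 in males. Leaving out litters gave 261 to 921, with 691 without exposed litter 9_2, 921 without control litter 9_10 and 602 without control litter 9_25. The interaction gave 1083 with the surrogate variable against 703. Against the other patterns 397 became 104 with litter as a random effect and 154 per litter, and 240 (without litter 9_12) to 829 (without litter 9_7); 0 passed FDR < 0.1 in all. The cause of these shifts was not tested. Of 1400 refits of 49 named genes 5 turned in sign: Tph1 (−0.19, and −0.37 with the random effect) and Neurod4 (−0.14 and −0.055) without the 2 males with pineal genes, and Flt1 (−0.054) in males. Upper-quartile scaling gave 217 higher and 106 lower genes and sums per litter 105 and 38, against 195 and 139. The directions of Stip1 and Eno2 held in all their alternatives. With 4 litters a side, a litter-level p cannot fall below 0.0286, and genes near 1 CPM rest on few reads.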

Other observations

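Further cell and pathway lists had median log2 fold changes of STIP1+NSE against controls between −0.39 and 0.24, beside 0.00 over all genes. Radial glia and astrocyte genes were above 0 in 11 of 23 (median 0.00), cortical interneuron genes in 9 of 21 (median −0.01), striatal genes in 8 of 16 (median −0.02), hypothalamic genes in 12 of 19 (median 0.06) and habenular genes in 3 of 8 (median −0.05, Tac1 among those below). Ependymal genes were above 0 in 3 of 11 (median −0.09), erythroid genes in 6 of 11 (median 0.01) and genes of border macrophages, mast cells and lymphocytes in 6 of 8 (median 0.24). Erythroid genes were above 0 in 1 of 11 with counts summed per litter (median −0.10). Without the 2 males with pineal genes 0 of 11 were (median −0.11). Of 6 pituitary genes that passed the filter 2 were above 0 (median −0.39), and 1 had an unadjusted p under 0.05 (16.7%, beside 2.66% of all genes). This was Gh1, growth hormone, at most 0.157 CPM in exposed and 2.59 CPM in control slices (p = 0.747 with litter as a random effect). Its control values came from litter 9_5, at 2.59 and 1.04 CPM, with at most 0.385 CPM in the other controls.

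Unfolded protein response genes were above 0 in 8 of 21 (median −0.02) and neurotrophins and their receptors in 5 of 11 (median −0.06). With the rounds as a block 15 of the 21 unfolded protein response genes were above 0 (median 0.04). VEGF signalling genes were above 0 in 9 of 12 (median 0.07). Flt1 and Kdr were the VEGF members under an unadjusted p of 0.05 (16.7%, beside 2.66% of all genes). Genes of PI3K and MAPK survival signalling were above 0 in 15 of 19 (median 0.02). No member of the unfolded protein response, neurotrophin, survival, ependymal, erythroid, hypothalamic or radial glial lists had an unadjusted p under 0.05 with edgeR, and 0 passed FDR < 0.1.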
